A study of Bubalus bubalis with 12 samples.

Results

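The expression of 10 genes that build, coat and empty lipid droplets was examined in the ruminal wall of dairy buffaloes. They were the perilipins PLIN2, PLIN3 and PLIN4, the diacylglycerol acyltransferases DGAT1 and DGAT2, the lipolysis genes PNPLA2, LIPE and ABHD5, and the droplet dehydrogenases HSD17B11 and HSD17B13. Each symbol was found in exactly 1 of the 34037 genes of the deposited table. The tissue was frozen rumen wall of 12 Italian Mediterranean buffaloes (Bubalus bubalis), adult milked animals of a single commercial herd that were slaughtered together, with 1 library of total RNA per animal and no pooling. In the control group, 6 animals had received a total mixed ration (TMR). In the treated group, 6 animals had received a TMR with green ryegrass at 30% of the diet. By the study's methods both rations matched in nitrogen and energy, forage formed the larger part of both, and its share over concentrate was higher in the treated ration. The rations were not alike in all else. The listed composition of the treated ration had a higher share of fat, more corn meal, and less corn silage and alfalfa hay. Soybean meal, calcium carbonate and vitamins were listed for the control ration only.

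A lipid droplet is a core of triglycerides and sterol esters under a single layer of phospholipids, on which coat proteins sit. Acyltransferases make the triglyceride at the endoplasmic reticulum, perilipins cover the surface and shield the core, and lipases release the fatty acids again in sequence. The ruminal epithelium is a stratified, keratinised layer that takes up the short-chain fatty acids of fermentation, and adipocytes lie, if present, in the wall below it.

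Values are FPKM, which the authors scaled by gene length and by the fragments counted per animal, so that levels of different genes can be compared. Within each gene the values were whole multiples of the value of 1 read, and the reads were worked out from this for all 22972 genes above 0. The depth was between 10531541 and 12948372 counted fragments per animal. The epithelial identity of the samples was clear, since KRT5, a keratin of the basal layer, had 1436 FPKM ± 495 (SD, n = 6) in the control group and 1550 FPKM ± 672 (SD, n = 6) in treated animals. Of the 8 adipocyte markers, ADIPOQ and LEP were listed at 0 in all 12 animals. PLIN1 and AQP7 had at most 3 reads in any animal. CIDEC had from 4 to 24 reads per animal, and LPL had fewer than 40 reads in every animal. However, FABP4 had from 37.7 to 246 FPKM and CIDEA, also a droplet protein, a mean of 23.9 FPKM. The summed FPKM of the 8 markers ran from 58.2 to 270 among controls and from 63.3 to 133 among treated animals. Markers of smooth muscle and fibroblasts were low in part of the treated group, with 1 of 16 tested markers at a nominal p-value below 0.05 and 0 after adjustment. Their combined score was -1.59 and -1.08 in treated replicates 1 and 2, and from -0.33 to 0.65 in the other treated animals, which was within the control range apart from the lowest, replicate 3. The summed FPKM of the 10 smooth muscle markers spanned 28.9 to 51.2 among controls and 15.5 to 40.7 among treated animals, and that of the 8 fibroblast markers from 44.5 to 276 and from 18.4 to 184. In bulk tissue, fewer cells of a type and less RNA per cell cannot be told apart.

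The animals that the labels number 6 in each group stood apart from the other 10. Both lay below all the others in 19.2% of the 12769 genes tested, and both lay above all the others in 8.60%. The number does not mark the same animal in both groups, and the labels give no batch. The diet differences of the lipid droplet genes in which both animals stood apart are given with and without them.

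The 10 genes spanned a range of levels from more than 100 FPKM to less than 1 read per library. PLIN2 had the highest mean over the 12 animals, 147 FPKM, which was above that of 98.2% of the genes detected. PLIN3 followed with 44.3 FPKM, ABHD5 with 8.0 FPKM, DGAT1 with 5.40 FPKM, HSD17B11 with 3.25 FPKM and PNPLA2 with 2.90 FPKM. Far below came HSD17B13 with 0.714 FPKM, DGAT2 with 0.329 FPKM, LIPE with 0.168 FPKM and PLIN4 with 0.00488 FPKM. PLIN2 and PLIN3 together held between 84.5% and 92.1% of the summed FPKM of the 10 genes in every animal. The order between PLIN2, PLIN3 and ABHD5 was the same in 12 of 12 animals. Neighbours that were not separated by the spread between animals were HSD17B11 and PNPLA2, of which HSD17B11 was higher in 7 of 12 animals, HSD17B13 and DGAT2 with 8 of 12, and DGAT2 and LIPE with 8 of 12. The plot of the genes by animal shows these steps.

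**Figure D1:**
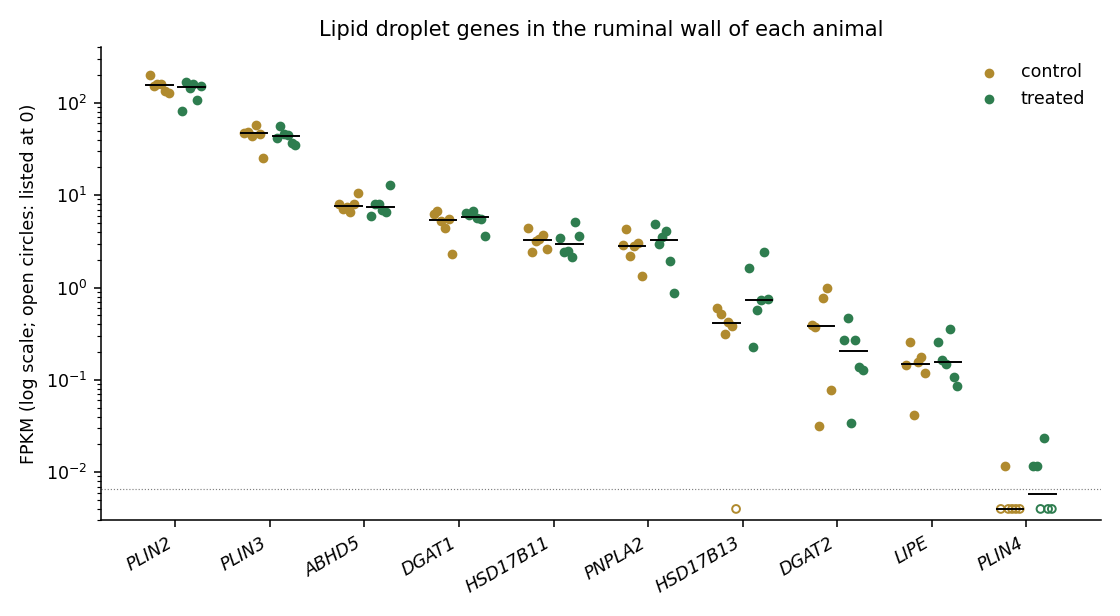
FPKM of each lipid droplet gene (y axis, log scale) in each of the 6 control and 6 treated animals, with genes ordered by their mean; horizontal bars are group medians and open circles are animals listed at 0. The perilipins PLIN2 and PLIN3 lie at the top in both groups, and PLIN4 lies at 2 reads or fewer in every animal.

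The coat of ruminal droplets was represented by PLIN2, the perilipin of tissues other than fat, and PLIN3, a more loosely bound perilipin found in most cells. In the control group PLIN2 ranged from 128 to 202 FPKM with a median of 157, and in the treated group from 82.7 to 170 FPKM with a median of 149. The 2 treated animals with the lowest levels, replicate 1 with 82.7 FPKM and replicate 5 with 107 FPKM, lay below all controls, whereas the other treated animals lay within the control range. The difference of the groups was a log2 fold change of -0.23 (SE 0.18, 95% interval -0.61 to 0.16), with a nominal limma p-value of 0.226. It was -0.09 without treated replicate 1, -0.15 without control replicate 1, the highest animal, and -0.10 with the smooth muscle and fibroblast score in the fit. Treated replicate 1 was also the animal with the lowest score of smooth muscle and fibroblast markers, -1.59, and the highest epithelial score, 1.16. Scores are means of z values over the markers above 0 in every animal. PLIN3 was between 25.6 and 57.7 FPKM in the control group and between 34.9 and 56.9 FPKM in the treated group, with medians of 46.8 and 43.4. Its groups overlapped throughout, with a log2 fold change of -0.02 (SE 0.18, 95% interval -0.40 to 0.37). PLIN4, a perilipin of adipocytes and muscle, had at most 1 read in control animals and at most 2 reads in treated animals. This is below the floor of 3 reads per library, and no fold change is given. Of the remaining perilipins, PLIN5, known from oxidative tissues, was listed at 0 in all animals.

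For the last step of triglyceride synthesis, DGAT1 was the acyltransferase with the higher level, and DGAT2, an unrelated enzyme with the same activity, was near the limit of detection. DGAT1 ranged from 2.29 to 6.83 FPKM in controls (median 5.36) and from 3.63 to 6.81 FPKM in treated animals (median 5.85). The groups overlapped, with a log2 fold change of 0.21 (SE 0.25, 95% interval -0.32 to 0.74) that was -0.01 without control replicate 6, the animal with the lowest level. DGAT2 had from 1 to 30 reads in control animals and from 1 to 14 reads in treated animals and did not reach the 40 reads needed for the test across genes. Its median was 0.382 FPKM in the control group and 0.203 FPKM in the treated group, and 5 of 6 treated animals lay below the control median. By the two-sided exact permutation test over the 924 assignments of the animals the difference had a p-value of 0.502. In no animal did DGAT2 exceed 0.181 of the level of DGAT1, and the ratio did not separate the diets (median 0.0581 against 0.0389, exact permutation p = 0.364, adjusted over 5 ratios p = 0.571).

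Among the lipolysis genes, ABHD5, the co-activator of the first lipase, stood above PNPLA2, which encodes that lipase (ATGL), and LIPE, which encodes hormone-sensitive lipase, was close to the floor. ABHD5 was between 6.60 and 10.5 FPKM in the control group and between 5.97 and 13.0 FPKM in the treated group, with medians of 7.70 and 7.44. PNPLA2 was between 1.35 and 4.35 FPKM in the control group and between 0.864 and 4.83 FPKM in the treated group, with medians of 2.85 and 3.24. Neither difference passed the test. The log2 fold change was -0.02 for ABHD5 (SE 0.18, 95% interval -0.41 to 0.38) and 0.02 for PNPLA2 (SE 0.39, 95% interval -0.82 to 0.86). The spread of PNPLA2 between animals, a residual SD of 0.76 on the log2 scale, was higher than that of 89.1% of the genes tested. LIPE had between 3 and 24 reads per animal. Its medians were 0.150 FPKM in the control group and 0.157 FPKM in the treated group (exact permutation p = 0.515), and it did not reach 40 reads. The ratios of LIPE to PNPLA2 and of PNPLA2 to ABHD5 did not differ between diets beyond the spread of the animals (exact permutation p = 0.457 and 0.948).

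The plot of PLIN3, DGAT1, PNPLA2 and ABHD5 by animal shows the position of the animals labelled 6, which was examined after their values were seen. PNPLA2 was 1.35 FPKM in control replicate 6 and 0.864 FPKM in treated replicate 6, and from 1.93 to 4.83 FPKM in the other 10 animals. DGAT1 was 2.29 and 3.63 FPKM in these animals and from 4.45 to 6.83 FPKM in the others. PLIN3 was likewise lowest in both, with 25.6 and 34.9 FPKM. ABHD5 went the other way, with 10.5 and 13.0 FPKM against 5.97 to 8.12 FPKM. Thus 3 of the 10 lipid droplet genes had both animals below all others and 1 had both above, beside the shares of all genes given above. Those shares cover only genes with at least 40 reads in at least 1 animal. Of the 10 lipid droplet genes 7 reached this, among them PLIN3, DGAT1, PNPLA2 and ABHD5. Without both animals the log2 fold change was -0.11 for PLIN3 (SE 0.12), 0.12 for DGAT1 (SE 0.13), 0.15 for PNPLA2 (SE 0.25) and -0.08 for ABHD5 (SE 0.12), with nominal limma p-values between 0.362 and 0.569. PLIN2 did not set these animals apart.

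**Figure D2:**
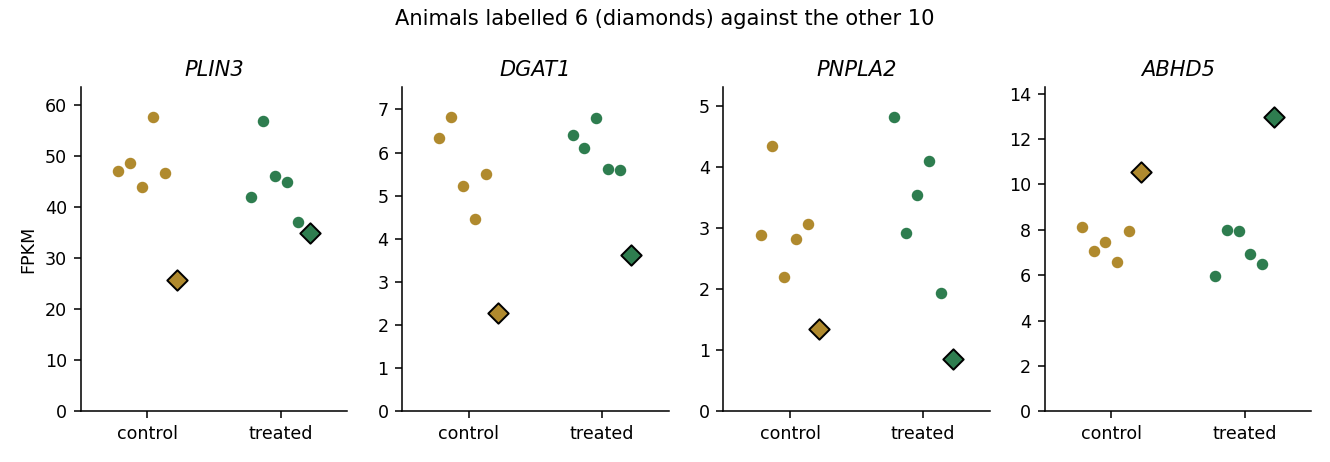
FPKM (y axis, linear, from 0) of PLIN3, DGAT1, PNPLA2 and ABHD5 in 6 control and 6 treated animals; points are animals and diamonds mark the animal labelled 6 in each group. The diamonds are the lowest animals for PLIN3, DGAT1 and PNPLA2 and the highest for ABHD5, in both diets.

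The droplet dehydrogenases HSD17B11 and HSD17B13 are close relatives that are targeted to the droplet surface, and HSD17B13 is best known from liver, where it acts on retinol. In the RefSeq annotation of the assembly NDDB_SH_1, which is not the build used for alignment, they are direct neighbours. HSD17B11 ranged from 2.44 to 4.44 FPKM in controls and from 2.16 to 5.15 FPKM in treated animals, with medians of 3.26 and 2.97 and a log2 fold change of -0.07 (SE 0.23, 95% interval -0.56 to 0.43). HSD17B13 ranged from 0 to 0.596 FPKM in controls, with a median of 0.409, and from 0.226 to 2.41 FPKM in treated animals, with a median of 0.740. These levels rested on 0 to 11 reads per control animal, 41 in all, and on 4 to 42 reads per treated animal, 112 in all. In 4 of 6 treated animals the level was above the highest control, while treated replicates 2 and 3, with 4 and 10 reads, lay within the control range. Treated replicates 5 and 1, with 42 and 29 reads, were the highest and were also the animals with the lowest PLIN2. Over all 12 animals the r of HSD17B13 with PLIN2 was -0.20 (permutation p adjusted 0.661), with 0.63 among controls and -0.81 among treated animals. The r was -0.73 without both animals labelled 6, and 0.52 without treated replicates 1 and 5. It thus depended in size and sign on few animals.

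The mean of HSD17B13 was 0.374 FPKM ± 0.207 (SD, n = 6) in the control group and 1.06 FPKM ± 0.814 (SD, n = 6) in the treated group, a ratio of 2.82. The log2 fold change was 1.79 (SE 0.92, 95% interval -0.18 to 3.75), the nominal limma p-value 0.0711 and the Benjamini-Hochberg adjusted p-value 0.9996. The two-sided exact permutation test gave p = 0.0801. The size of this difference depended on few animals. Without treated replicate 5 the ratio of the means was 2.10 (exact permutation p = 0.199), and without treated replicates 1 and 5 it was 1.52 (exact permutation p = 0.467). Without control replicate 6, in which no read was counted and where 0 reads allow up to 0.194 FPKM, the log2 fold change was 0.87, and without both animals labelled 6 it was 0.90 (SE 0.55, nominal p 0.129). With the score of smooth muscle and fibroblast markers in the limma fit it was 1.53 (SE 1.06, nominal p 0.174). The nominal p-value was 0.0421 with a pseudocount of 0.1 and 0.0332 with a pseudocount of 1, in which a library with 0 reads weighs less, and 0.0398 without treated replicate 2, the lowest treated animal. HSD17B13 passed the filter of 40 reads only through treated replicate 5.

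Set against its neighbour, HSD17B13 made up between 0 and 0.211 of the level of HSD17B11 in controls (median 0.116) and between 0.0936 and 0.475 in treated animals (median 0.284). The ratio was above the control median in 5 of 6 treated animals. The difference was 1.86 on the log2 scale (exact permutation p = 0.0303), which was 0.152 after adjustment over the 5 ratios examined. Without control replicate 6 the difference was 1.01 (exact permutation p = 0.0541), and without both animals labelled 6 it was 1.08 (exact permutation p = 0.0714). Leaving out any of treated replicates 1, 3, 4 or 5 also moved the unadjusted p-value past 0.05, up to 0.0823 by the exact permutation test. Of 16 alternative settings in all, 8 had an unadjusted p-value below 0.05. The lowest was 0.00649 by the exact permutation test, without treated replicate 2, the treated animal with the lowest ratio.

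**Figure D3:**
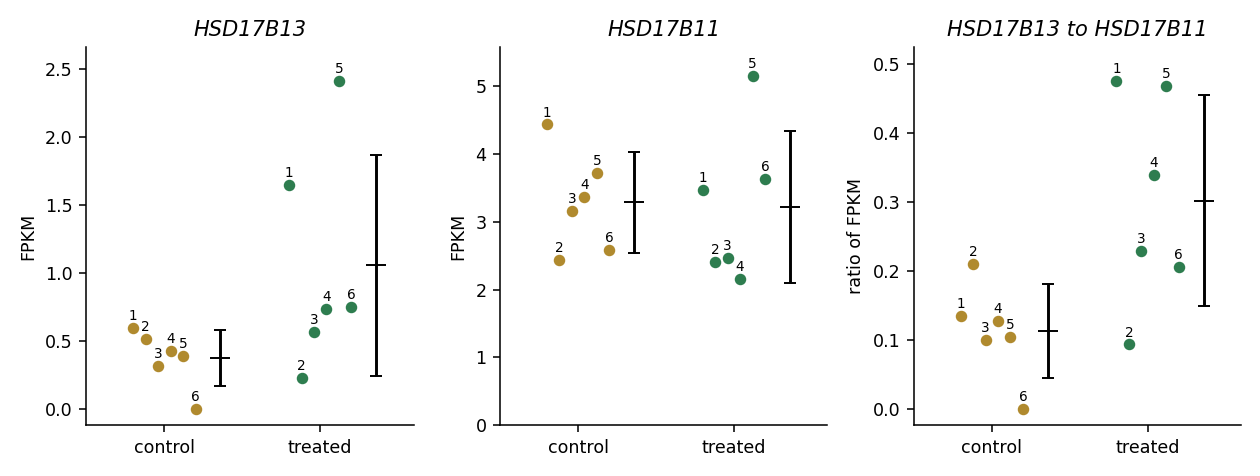
FPKM of HSD17B13 and HSD17B11 and their ratio (y axes, linear) in each control and treated animal, labelled with the replicate number; bars are the mean and SD of 6 animals. Treated replicates 1 and 5 are highest for HSD17B13, control replicate 6 is at 0, and HSD17B11 overlaps between diets.

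Of the 10 lipid droplet genes, 7 had at least 40 reads in at least 1 animal and were tested with limma across all 12769 such genes. None of the 7 had a nominal p-value below 0.05, where 1.28% of all genes tested did (163 genes). None had an adjusted p-value below 0.05, like 0% of all genes tested, and the count of adjusted calls was also 0 with voom on the reads. It was 0 with the exact rank-sum test as well, but the smallest p-value of that test is 0.00216. Adjusted over 12769 genes, such a value could pass only if very many genes reached it, so that this 0 was nearly fixed in advance. The median of the absolute log2 fold change was 0.07 over the 7 genes and 0.10 over all genes tested, where the median standard error was 0.21. For PLIN2, PLIN3, ABHD5 and HSD17B11 the intervals excluded a doubling or halving of the level. So did that of DGAT1. That of PNPLA2 did in this fit, but its estimate with the smooth muscle and fibroblast score was -0.34 with an SE of 0.41, and that of HSD17B13 did not.

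**Figure D4:**
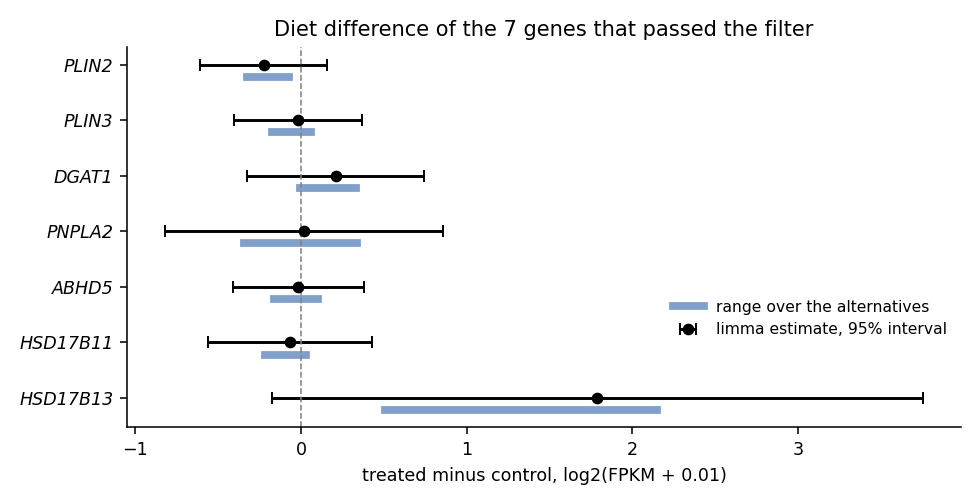
Difference between treated and control animals (x axis, log2 scale) for the 7 lipid droplet genes that passed the filter; points are limma estimates with 95% intervals, and blue bars span the estimates under the alternative settings and with single animals left out, those with other pseudocounts on their own log2 scale. All intervals cross 0, and that of HSD17B13, from -0.18 to 3.75, is the widest.

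How the lipid droplet genes varied among the 12 animals was described by correlations of log2(FPKM + 0.01) over 45 pairs, with permutation p-values and Benjamini-Hochberg adjustment within the family. By Pearson's r no pair had an adjusted p-value below 0.05, and by Spearman's rho 3 pairs had. PNPLA2 and LIPE had a rho of 0.87 (permutation p adjusted 0.0225) and an r of 0.70 (permutation p adjusted 0.125), with an r of 0.57 among controls, 0.85 among treated animals and 0.82 without the animals labelled 6, although LIPE rests on 24 reads or fewer. PNPLA2 and DGAT1 had a rho of 0.82 (permutation p adjusted 0.0316) and an r of 0.77 (permutation p adjusted 0.114), with 0.90 among controls, 0.89 among treated animals and 0.52 without the animals labelled 6. The third pair, PLIN4 with LIPE, rests on 2 reads or fewer of PLIN4. The highest r in absolute terms was that of PNPLA2 with ABHD5, -0.81 (permutation p adjusted 0.0979). It was -0.21 without the animals labelled 6, so that the relation rested on them.

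In the same way, the lipid droplet genes were set against 4 marker scores of the same libraries, in 40 relations, of which 0 had an adjusted p-value below 0.05 by either measure. The adipocyte score leaves out ADIPOQ, LEP, PLIN1 and AQP7, which were at 0 in part or all of the animals. It holds FABP4, LPL and the droplet genes CIDEA and CIDEC with equal weight, so that it is a limited measure of adipocytes. Of these, CIDEC and LPL had few reads and did not pass the filter. PNPLA2 was the gene most closely tied to the epithelial score, with an r of 0.77 and a rho of 0.82 (permutation p adjusted 0.129 and 0.0688). The r was 0.82 among controls, 0.77 among treated animals, 0.63 without the 2 animals farthest from the median score and 0.66 without the animals labelled 6. DGAT1 had an r of 0.63 and a rho of 0.78 with the same score (permutation p adjusted 0.405 and 0.0762), and an r of 0.55 without the animals labelled 6. LIPE, with few reads, had an r of 0.67 and a rho of 0.73 (permutation p adjusted 0.348 and 0.103). ABHD5 had the opposite sign, with an r of -0.60 and a rho of -0.29 (permutation p adjusted 0.405 and 0.789). Its r was -0.26 without the animals labelled 6. PLIN2 had no such relation, its highest r being 0.49 with the smooth muscle and fibroblast score (permutation p adjusted 0.516), 0.24 without treated replicates 1 and 2.

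Over the 12 animals, the 3 named genes whose pattern was most like that of HSD17B13 were COPZ2 (r = 0.93), ADGRA3 (r = 0.92) and RPP21 (r = 0.92). For PLIN2 they were MOCS3 (r = 0.88), CSGALNACT1 (r = 0.87) and BCL6B (r = 0.86). These are the highest of all tested genes with a symbol, compared over only 12 points, and for HSD17B13 the single animal at 0 enters each of them.

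Around these genes, 77 other genes of lipid storage were taken from 7 lists, of which 73 were in the table and 56 passed the filter. None had a nominal limma p-value below 0.05 (1.28% of all genes) or an adjusted p-value below 0.05. On the log2 scale the treated mean was higher in 28 and lower in 28, and the median log2 fold change was 0.00, as over all genes tested. The largest difference was that of GPAT3, a glycerol-3-phosphate acyltransferase, with a log2 fold change of 0.71 (SE 0.54), and the smallest nominal p-value was that of HSD17B12, an enzyme of fatty acid elongation, with -0.21 (SE 0.10, nominal p 0.0666). The values of both genes were known when they were picked.

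The lists also show which partners the lipid droplet genes had in this tissue. Among the other droplet coat and assembly genes, AUP1 had the highest level, with 56.7 FPKM ± 7.97 (SD, n = 6) in the control group and 56.9 FPKM ± 2.97 (SD, n = 6) in the treated group. For triglyceride synthesis it was AGPAT2, which makes phosphatidic acid, with 71.3 FPKM ± 11.3 and 71.5 FPKM ± 8.53 (SD, n = 6 each). AQP3, a glycerol channel also typical of stratified epithelia, led the lipolysis list with 212 FPKM ± 56.8 and 179 FPKM ± 56.8 (SD, n = 6 each). On the log2 scale all 5 tested genes of this list had a lower treated mean, with a median log2 fold change of -0.23, and none had a nominal p-value below 0.05. FABP5, the epidermal fatty acid binding protein, was at 779 FPKM ± 123 and 904 FPKM ± 189 (SD, n = 6 each), above every lipid droplet gene. Of the 56 tested genes of these lists, 25.0% had both animals labelled 6 below all others and 14.3% had both above, beside 19.2% and 8.60% of all genes tested. SOAT1, which esterifies cholesterol for storage in droplets, was at 49.2 and 55.3 FPKM in the animals labelled 6 and at most 22.8 FPKM in the other 10. Of the transcriptional regulators, NR1H2, which encodes the sterol-sensing receptor LXR beta, was highest, and it was low in the animals labelled 6, with 11.8 and 15.7 FPKM against 26.3 to 31.7 FPKM. Among the other HSD17B genes, HSD17B2, which inactivates estradiol and testosterone, was highest, with 162 FPKM ± 26.9 and 158 FPKM ± 46.0 (SD, n = 6 each), compared with 0.714 FPKM for HSD17B13.

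Of the tissue markers, those of smooth muscle and fibroblasts lay farther from 0, as the plot of the lists shows. On the log2 scale, all 8 tested smooth muscle markers and all 8 tested fibroblast markers had a lower treated mean, with median log2 fold changes of -0.75 and -0.74, and 1 of these 16 genes, DES (desmin), had a nominal limma p-value below 0.05 (log2 fold change -1.04, SE 0.42, nominal p 0.0271, adjusted p 0.9996). The median was 0.08 over the 11 epithelial markers, -0.11 over the 5 endothelial markers and -0.12 over the 4 tested immune cell markers, among which PECAM1 and CD14 had the highest levels of their lists. The levels of SMTN (13.4 FPKM ± 4.98 and 13.5 FPKM ± 5.57, SD, n = 6 each) and COL3A1 (36.2 FPKM ± 21.8 and 28.0 FPKM ± 24.3, SD, n = 6 each) were the highest of the smooth muscle and fibroblast lists. Hepatocyte markers were at or near the floor, the highest being TTR with at most 13 reads, and FABP4 was the highest adipocyte marker, with 102 FPKM ± 74.0 and 69.4 FPKM ± 27.4 (SD, n = 6 each). The part of these markers in the values of the lipid droplet genes was examined only through the scores given above.

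**Figure D5:**
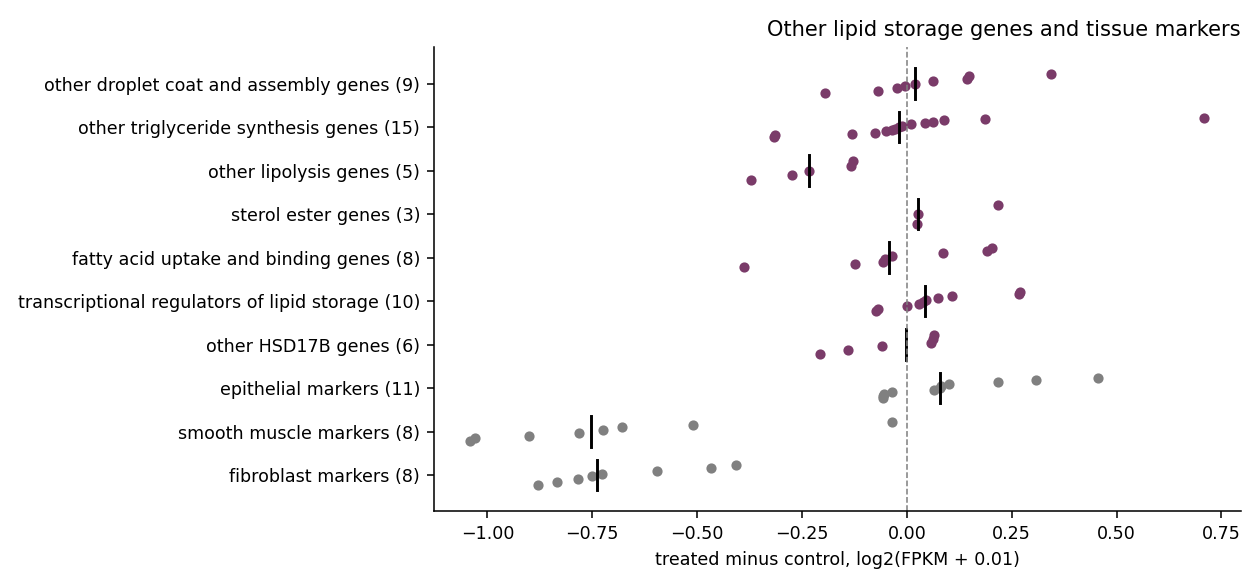
Difference between treated and control animals (x axis, log2 scale) for each tested gene of 7 lists of other lipid storage genes (purple) and 3 lists of tissue markers (grey), with the number of genes in brackets; black bars are medians. The lipid storage lists lie around 0, with lipolysis at -0.23, and the smooth muscle and fibroblast markers lie at -0.75 and -0.74.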

How the data were processed

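Total RNA of 12 ruminal wall samples, 1 per animal, had been sequenced from stranded libraries. The authors trimmed the reads with Trimmomatic 0.39, aligned them with STAR 2.5.2b to the genome UOA_WB_1 and counted them by strand with featureCounts 2.0.0. The authors deposited FPKM per gene; the tool and the gene lengths behind the FPKM are not given in the sources used here. Of 16 columns, 12 matched sample labels and 4 were not used. Columns and labels number the animals differently, and the numbers of the labels are used here. Reads behind each value were worked out from the steps of the FPKM (22972 of 22972 genes within 1e-08), and the depth of 10531541 to 12948372 counted fragments sets the precision. Each pair of libraries differed by more than sampling noise (chi-square per gene from 17.1 to 122). A count of 3 reads or fewer in a library was taken as the floor. Intervals and floors from reads cover counting error only.

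Genes with at least 40 reads in at least 1 animal were tested on log2(FPKM + 0.01) with limma 3.58.1 (lmFit, eBayes with trend) in R 4.3.3 and Benjamini-Hochberg adjustment. Single genes and ratios were tested by two-sided exact permutation tests of mean log2 values (0.01 added to the FPKM). These ran over 924 assignments, for which the smallest p-value is 0.00216. Correlations used 100000 permutations (Python 3.11.15, numpy 2.4.6, scipy 1.17.1). The methods were tested on simulated data. Alternatives were pseudocounts of 0.1 and 1, other filters and scalings, robust eBayes, voom on the reads, an exact rank-sum test, the replicate number as a block, marker scores as covariates and each animal left out. The epithelial score as a covariate and the removal of both animals labelled 6 were added after seeing the data. The members and lists were chosen with earlier results of these data known. Among these, the study had listed HSD17B13 as up-regulated in the same treated animals, by edgeR without adjustment of the p-value. From the lists, genes with a nominal p-value below 0.05, genes at 0 in all animals and the gene with the highest mean are named. For HSD17B13 and PLIN2 the 3 most similar named genes are given. Others (PLIN1, AQP7, CIDEA, CIDEC, LPL, GPAT3, HSD17B12) were chosen after their values were seen. CES1, AADAC, HSD17B3, HSD17B6 and KRT14 were not found by symbol and were not analysed here.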

Additional observations from a re-analysis of the deposited data

Results flagged for a closer look

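Among the values of the lipid droplet genes, 2 animals lay far from the others of their group, out of 20 groups of 6 animals examined, of which chance flags about 1 in 20. ABHD5 was 13.0 FPKM in treated replicate 6, and the next treated animal had 7.97 FPKM. PLIN4 was 0.0118 FPKM in control replicate 2, which is 1 read, while the other controls were at 0.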

How the results depend on the processing

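No setting gave an adjusted p-value below 0.05 for any gene. For the exact rank-sum test this was nearly fixed in advance by its smallest possible p-value. The lipid droplet genes with a nominal p-value below 0.05 numbered 0, and 1, HSD17B13, with a pseudocount of 0.1 (log2 fold change 1.20) or 1 (0.51) and between 0 and 1 with single animals left out (2.15 without treated replicate 2); without treated replicate 5 it was not tested. Over all genes this count was 163, against 562 with all genes above 0, 346 with a mean of at least 0.1 FPKM, 301 with 0.1 FPKM or more in 6 or more animals, 316 with the epithelial score, 338 with the smooth muscle and fibroblast score, 311 without both animals labelled 6, and from 145 to 328 with single animals left out (328 without treated replicate 6). For the other lipid storage genes it was 0, against 1 with the adipocyte score and without both animals labelled 6 (HSD17B12), 3 with the epithelial score (AQP3, FABP5, HILPDA), 2 with the smooth muscle and fibroblast score (FABP5, FITM1) and from 0 to 2 with single animals left out. With the replicate number as a block, these counts were 326 over all genes, 0 for the lipid droplet genes and 1 for the other lipid storage genes (HSD17B12), and HSD17B13 had a nominal p-value of 0.0519. Same-numbered animals had an r from -0.01 to 0.41 with a mean of 0.21. The 30 pairs with other numbers had a mean of -0.04 and at most 0.20. The labels name no pairing, so that the number entered only as this alternative block, and what same-numbered animals share was not tested. In 7 of 12 animals the best correlation was with the own number, and the highest r, 0.41, was that of the animals labelled 6.

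Differences near 0 changed sign. PLIN3 was 0.0051 with the adipocyte score, and -0.17 to 0.062 with single animals left out. PNPLA2 was -0.00041 with the adipocyte score, -0.20 with the epithelial score, -0.34 with the smooth muscle and fibroblast score, -0.014 with upper quartile scaling and -0.0062 with voom, and -0.17 to 0.34 with single animals left out. ABHD5 was 0.058 with the epithelial score and 0.10 with the smooth muscle and fibroblast score, and -0.16 to 0.069 with single animals left out. With single animals left out, DGAT1 was from -0.0060 to 0.33 and HSD17B11 from -0.22 to 0.033. The ratio of LIPE to PNPLA2 was -0.0011 by medians, and that of PNPLA2 to ABHD5 from -0.24 to 0.50 with single animals left out. The cause was not tested. The ratio of HSD17B13 to HSD17B11 was 1.26 by medians (exact rank-sum p = 0.0649) and 1.86 with the block (exact sign-flip p = 0.0625). DGAT2, LIPE and PLIN4 are limited by depth.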
